A study of Homo sapiens with 12 samples.

Results

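HES1, HES4, HES6, HEY1, HEY2 and HEYL, 6 genes of the HES and HEY families of transcriptional repressors, were followed in 3 cultured human mantle cell lymphoma lines treated with a gamma-secretase inhibitor. The genes were taken by name together with every probe set that names one of them alone, which gave 11 of the 54675 probe sets on the arrays: 3 for HES1, 2 each for HEY1, HEY2 and HEYL, and 1 each for HES4 and HES6. A probe set is a group of short probes that together report 1 transcript. The lines Mino, Rec-1 and SP-49 were grown from mantle cell lymphomas, cancers of B cells. Every line spent 24 h with 1 µM compound E, which blocks gamma-secretase (GSI), or with 0.1% DMSO alone (Mock), in 2 arrays per group and 12 in all. Serum made up 15% of the medium of Mino and 10% of that of the other lines, so its effect and that of the line cannot be told apart. Each line stands for 1 tumour, and it is not given in the sources used here whether the 2 arrays of a group came from separate cultures. What the p-values weigh is thus the spread between these arrays alone, and that spread may be technical.

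Notch receptors are cut by gamma-secretase once a ligand or a mutation has opened them, and the freed intracellular part joins the DNA-binding protein RBPJ and switches genes on. HES and HEY genes are among its best known direct targets. Their products are basic helix-loop-helix proteins that bind DNA as dimers, recruit TLE-type co-repressors and shut other genes off. HES1 also represses its own promoter. HES6 is the exception in the group, because it binds HES1 and counteracts it.

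RBPJ is known to bind DNA that carries the letters TGGGAA, preferably as GTGGGAA. RefSeq promoters (build GRCh38.p14, 250 bases before to 50 after the start) matched 5 of the 6 genes, all but HEY1. On either strand, GTGGGAA was found once in HES1, HES4 and HEYL, 2 times in HEY2 and not in HES6. Of 35116 promoters of this length, 6.25% held GTGGGAA. The shorter TGGGAA, which lies inside GTGGGAA, was found in the same 4 genes and in 24.0% of all promoters. The stretches below are shown because HES1 and HES4 are the members that fell and had a promoter to match, and HEY2 and HEYL because they carry the same letters. Capitals mark TGGGAA, or TTCCCA where the match is on the opposite strand.
HES1, chr3:194135998-194136147, plus strand, 150 bases up to the start: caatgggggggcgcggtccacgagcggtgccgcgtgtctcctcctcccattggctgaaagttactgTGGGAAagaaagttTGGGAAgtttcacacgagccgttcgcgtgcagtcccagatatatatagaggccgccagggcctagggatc
HES4, chr1:1000098-1000247, minus strand, 150 bases up to the start: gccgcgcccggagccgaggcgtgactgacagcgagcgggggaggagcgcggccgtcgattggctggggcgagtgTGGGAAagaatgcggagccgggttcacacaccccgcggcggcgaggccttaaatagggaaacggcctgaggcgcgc
HEY2, chr6:125749393-125749452, plus strand, 60 bases: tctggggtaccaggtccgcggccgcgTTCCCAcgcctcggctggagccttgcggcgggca
HEYL, chr1:39639788-39639847, minus strand, 60 bases: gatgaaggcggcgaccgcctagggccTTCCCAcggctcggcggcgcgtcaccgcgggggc
In HES1 the letters GTGGGAA began 85 bases before the start, and a second TGGGAA began 70 bases before it. In HES4 the only match began 77 bases before the start. The longest run that these HES1 and HES4 stretches share is TGTGGGAAAGAA, 12 bases around that match. Of the 35116 promoters 8 hold it, HES1 and HES4 among them. The run was picked from these stretches, so that count is a description only. In HEY2 and HEYL the matches shown began 213 and 178 bases before the start. The second match of HEY2 began 4 bases before the start, and HEYL had another TGGGAA 99 bases before it. HES1 also held 4 matches to CACNAG, the N-box that HES proteins are known to bind, against none in HES4, HES6, HEY2 and HEYL. N-box letters on either strand occurred in 38.0% of all promoters. A match to these letters is a description and does not show binding.

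The deposited values were on a log2 scale (base inferred) with a median of 1.99 over all probe sets, and near that median background makes up most of the reading, which understates falls that reach it and folds against a group that lies there. B-cell markers were high in every group. MS4A1, CD79A, CD79B and PAX5 had group means of at least 7.15, CD22 of 3.92 or more, and CCND1, the cyclin that the lymphoma's translocation switches on, of at least 8.32. SOX11 and CD5, also markers of this lymphoma, ranged from 4.87 to 8.66 and from 2.40 to 4.37. The endothelial markers CDH5 and KDR, of a cell type where HEY genes are known to be active, stayed at or below 1.62, and the 4 myeloid markers CD14, LYZ, CSF1R and ITGAM at or below 2.09. VWF and PECAM1 of endothelium ranged from 2.15 to 2.32 and from 2.41 to 3.74, and 4 stromal genes (COL1A1, COL1A2, COL3A1 and PDGFRB) from 1.33 to 3.60. Of the 5 B-cell markers measured, CD79B was called higher in Rec-1 with the inhibitor (1.67% of all genes) and none lower (2.95%). The unadjusted limma p there was under 0.05 for 4 of the 5. Besides CD79B these were CD79A and MS4A1, with changes of 0.47 and 0.51, and PAX5, with -0.41 (adjusted p = 0.135, 0.0582 and 0.139). Of 4 T-cell markers, CD3D had a mean of 4.80 in Rec-1 Mock and 4.17 in Rec-1 GSI (adjusted p = 0.0357 in limma), while CD3E, CD3G and CD2 had group means of 2.53 or less throughout. Leaving out single arrays ended the call of CD3D 9 times of 12 (adjusted p = 0.171 without replicate 1 of Rec-1 Mock). The gap in GAPDH signal between the ends of its transcript, which widens as RNA degrades, was 0.59 and 0.49 on the Rec-1 GSI arrays and 0.41 and 0.37 on the Rec-1 Mock arrays. The same gap for ACTB was 2.285 and 1.918 against 1.999 and 1.825, with overlap. The part of these gaps in the results was not tested.

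**Figure D1:**
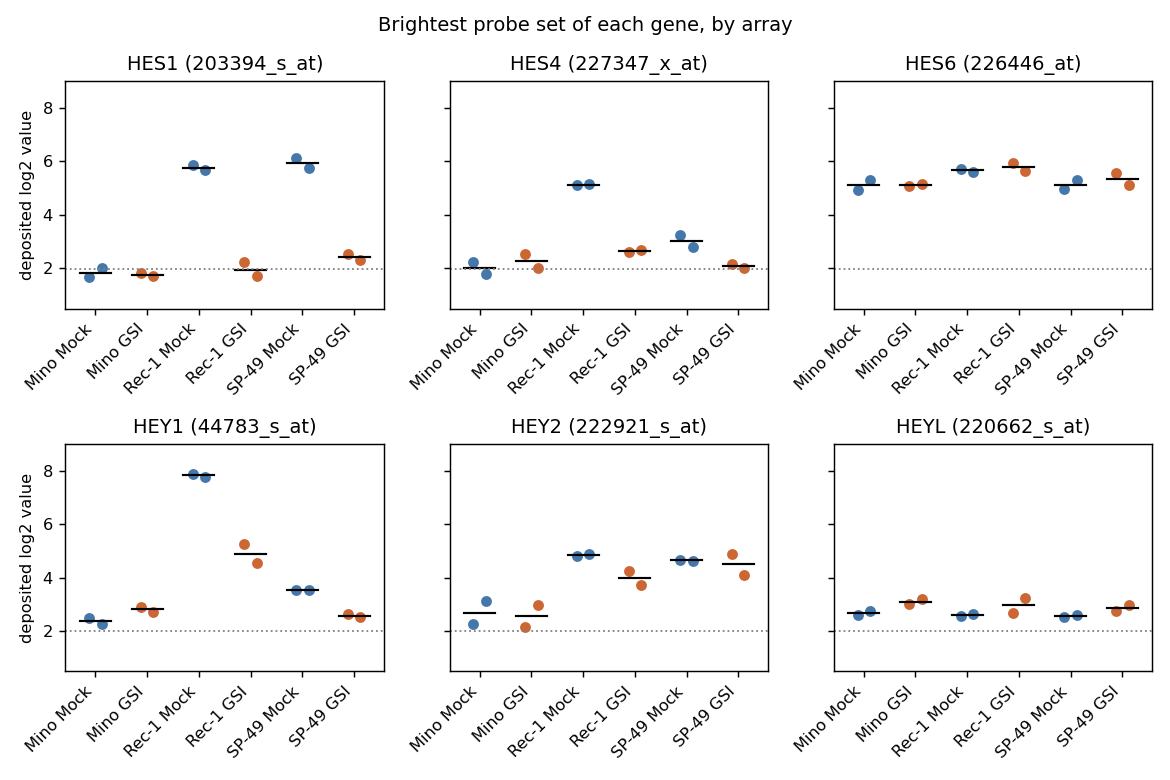
Deposited log2 values (y axis) of the brightest probe set of each gene in the 6 groups (x axis). Points are single arrays (blue Mock, orange GSI), black bars group means (n = 2), and the dotted line is the median of all probe sets, 1.99. HES1 stood between 5.67 and 6.11 in the Mock arrays of Rec-1 and SP-49 and at 2.53 or less on all other arrays, while HES6 lay between 4.94 and 5.95 on all 12.

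Without inhibitor, 4 of the 6 genes were higher in Rec-1 and SP-49 than in Mino. Against Mino, 7 of the 11 probe sets were higher in Rec-1 (background 8.19% of all probe sets) and 6 in SP-49 (background 9.05%), from HES1, HES4, HEY1 and HEY2 in both cases. None of the 11 was lower in either comparison by limma (background 8.63% and 7.95%; unadjusted p under 0.05 in either direction for 8 and 6 of the 11). Rec-1 and SP-49 differed from each other in HES4 and HEY1, with 3 probe sets higher in Rec-1 (background 8.81%) and none lower (background 10.3%; unadjusted p under 0.05 in either direction for 4 of the 11).

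HES1 was on in Rec-1 and SP-49 and at background in Mino. Its brightest probe set, 203394_s_at, read 1.69 and 2.0 in Mino Mock, 5.86 and 5.67 in Rec-1 Mock, and 6.11 and 5.77 in SP-49 Mock. Both Rec-1 and both SP-49 arrays stood above the Mino arrays and overlapped with each other. The Mock level was higher than in Mino by 3.92 ± 0.19 (SE) in Rec-1, 15.2-fold (limma adjusted p = 5.79e-08), and by 4.09 ± 0.19 in SP-49, 17.1-fold (adjusted p = 5.01e-08). Rec-1 and SP-49 had a difference of -0.17 (95% interval -0.60 to 0.25; adjusted p = 0.669).

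Compound E took HES1 down to background in Rec-1 and near it in SP-49. With inhibitor the arrays read 2.23 and 1.70 in Rec-1 and 2.53 and 2.33 in SP-49, below every Mock array of the same line. Both SP-49 readings stayed above every Mino array. HES1 fell by 3.80 ± 0.19 (SE) in Rec-1, 14.0-fold (95% interval -4.23 to -3.38; limma adjusted p = 5.96e-06), and by 3.51 ± 0.19 in SP-49, 11.4-fold (95% interval -3.93 to -3.08; adjusted p = 2.11e-05). The Rec-1 GSI mean of 1.96 ± 0.37 (SD, n = 2) lay above 47.4% of all probe sets and the SP-49 GSI mean of 2.43 ± 0.15 above 61.4%. The Rec-1 change minus the SP-49 change was -0.30 (95% interval -0.90 to 0.30; adjusted p = 0.828). In Mino the arrays read 1.82 and 1.73 with inhibitor, and the change was -0.07 (95% interval -0.49 to 0.35; adjusted p = 1.00).

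The second HES1 probe set, 203395_s_at, gave the same order at lower values. It read 4.04 and 3.06 in Rec-1 Mock against 1.54 and 2.17 with inhibitor, and 3.97 and 3.72 in SP-49 Mock against 2.04 and 2.35. In both lines the GSI arrays lay below the Mock arrays. It fell by 1.69 in Rec-1 (limma adjusted p = 0.011; 0.0909 without replicate 1 of Rec-1 Mock) and had a change of -1.65 in SP-49 (adjusted p = 0.102). The third probe set, 203393_at, had group means from 1.40 to 1.89, below the median probe set in every group. The fall of HES1 passed on 2 of its 3 probe sets in Rec-1 and on 1 in SP-49.

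HES4, a close relative of HES1 found in humans but not in mice, was graded over the lines. Its 1 probe set, 227347_x_at, read 2.24 and 1.80 in Mino Mock, 3.25 and 2.80 in SP-49 Mock, and 5.11 and 5.14 in Rec-1 Mock. The arrays of the 3 lines did not overlap, and Rec-1 was higher than SP-49 by 2.10 ± 0.21 (SE; limma adjusted p = 1.61e-05). SP-49 was higher than Mino by 1.00 (adjusted p = 0.00484), a call that ended without replicate 2 of Mino Mock or replicate 1 of SP-49 Mock (adjusted p up to 0.0693). The suffix x marks a probe set in which some probes can also match other transcripts, so part of its signal may not be HES4.

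HES4 fell in Rec-1 with the inhibitor. The GSI arrays read 2.60 and 2.70 in Rec-1, far below the Mock arrays, and the fall was 2.48 ± 0.21 (SE), 5.56-fold (limma adjusted p = 0.00019). In SP-49 they read 2.15 and 2.03, again below both Mock arrays, with a change of -0.93 (95% interval -1.38 to -0.47; adjusted p = 0.187). In Mino they read 2.55 and 2.01 and overlapped with Mock. The Rec-1 change minus the Mino change was -2.74 (adjusted p = 0.0038), and the Rec-1 change minus the SP-49 change -1.55 (95% interval -2.19 to -0.90; adjusted p = 0.0751).

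HEY1 was highest in Rec-1. HEY1 is a repressor best known from blood vessels and heart, where it acts downstream of Notch. Its brightest probe set, 44783_s_at, read 7.88 and 7.77 in Rec-1 Mock, 3.52 and 3.54 in SP-49 Mock, and 2.50 and 2.28 in Mino Mock. The 3 lines were well apart, Rec-1 being higher than SP-49 by 4.30 ± 0.20 (SE), 19.7-fold (limma adjusted p = 2.98e-08), and than Mino by 5.43, 43.2-fold (adjusted p = 4.46e-09). SP-49 was higher than Mino by 1.14 on this probe set (adjusted p = 0.00147), while the dimmer one, 218839_at, had a difference of 0.44 (adjusted p = 0.452).

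With compound E, HEY1 fell in Rec-1 on both probe sets but was not lost. On 44783_s_at the GSI arrays read 5.24 and 4.53, a fall of 2.94 ± 0.20 (SE), 7.68-fold (limma adjusted p = 4.7e-05). On 218839_at the Mock arrays read 6.86 and 6.22 and the GSI arrays 3.69 and 2.67, a fall of 3.36 ± 0.31, 10.3-fold (adjusted p = 0.000277). The treated Rec-1 mean of 4.89 on 44783_s_at was still above every Mock and GSI array of the other lines, whose highest reading was 3.54. HES1 by contrast ended at a mean of 1.96 in Rec-1, next to its Mino Mock mean of 1.84.

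In SP-49, HEY1 read 2.64 and 2.52 with inhibitor on 44783_s_at, below both Mock arrays, and the change was -0.95 (95% interval -1.38 to -0.51; limma adjusted p = 0.152). Without 1 Rec-1 GSI array, whichever it was, this adjusted p was 0.0339. On 218839_at the SP-49 arrays overlapped. In Mino, HEY1 read 2.89 and 2.73 with inhibitor, above both Mock arrays on 44783_s_at, with a change of 0.41 (95% interval -0.02 to 0.85; adjusted p = 1.00). HEY1 fell more in Rec-1 than in Mino on both probe sets, with differences of -3.36 and -3.43 (adjusted p = 0.000774 and 0.00819, the second reaching 0.0519 without replicate 2 of Mino GSI). It also fell more in Rec-1 than in SP-49, with differences of -1.99 and -3.15 (adjusted p = 0.0206 and 0.0196). Both of these differences from SP-49 were lost when any Mock array of Rec-1 or SP-49, or replicate 2 of SP-49 GSI, was left out, and the first also without replicate 1 of SP-49 GSI (adjusted p up to 0.13). The Mock level of SP-49 on 44783_s_at lay 4.30 below that of Rec-1 and nearer to background, and the part of this in the difference was not tested.

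HEY2, a relative of HEY1 with a known part in arteries and heart, had its own pattern. On 222921_s_at it read 4.79 and 4.89 in Rec-1 Mock, 4.67 and 4.62 in SP-49 Mock, and 2.27 and 3.11 in Mino Mock. Rec-1 and SP-49 were close, with a difference of 0.19 (95% interval -0.53 to 0.92; limma adjusted p = 0.799), and both were higher than Mino, by 2.15 and 1.96 (adjusted p = 0.00059 and 0.00116). The other probe set, 219743_at, was also higher than in Mino, by 1.22 in Rec-1 and 1.34 in SP-49 (adjusted p = 0.00113 and 0.000572).

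With the inhibitor, neither HEY2 probe set passed in Rec-1 or SP-49, 219743_at in Rec-1 narrowly. In Rec-1 the GSI arrays read 4.26 and 3.71 on 222921_s_at and 2.41 and 2.06 on 219743_at, below both Mock arrays in each case. The changes were -0.86 (95% interval -1.58 to -0.14; limma adjusted p = 0.227) and -0.82 (95% interval -1.26 to -0.37; adjusted p = 0.0546). The second passed without replicate 1 of Rec-1 GSI (adjusted p = 0.0314) or either SP-49 Mock array (0.0268). It also passed with dim probe sets left out (0.0478), quantile normalization again (0.0291), median centring (0.0484) and an intensity trend (0.0392), and not with array weights (0.15) or the Rec-1 arrays alone (0.177). In SP-49 the GSI arrays, 4.87 and 4.10 on 222921_s_at, overlapped with Mock, and the change was -0.16 (95% interval -0.88 to 0.56). On 219743_at they read 2.92 and 2.67 against 3.51 and 2.84 in Mock, again with overlap, and the change was -0.38 (95% interval -0.83 to 0.07; adjusted p = 0.771).

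HEYL, which is known mostly from vascular smooth muscle, was near background in every group. On 220662_s_at the Mock arrays read from 2.53 to 2.75 in the 3 lines, and the Mock levels had no called difference between lines by limma (adjusted p = 0.847 for Rec-1 minus Mino and 0.767 for SP-49 minus Mino). The inhibitor arrays read 3.00 and 3.20 in Mino, 2.66 and 3.25 in Rec-1, and 2.75 and 2.97 in SP-49. In each line both GSI arrays lay above both Mock arrays, a pattern that 0.69% of all probe sets had in all 3 lines. The changes of 0.42, 0.36 and 0.30 in Mino, Rec-1 and SP-49 did not pass (adjusted p = 0.995, 0.376 and 0.819). The Rec-1 change was 0.66 without replicate 1 and 0.06 without replicate 2 of Rec-1 GSI (adjusted p = 0.0358 and 0.941). The other HEYL probe set, 226828_s_at, had group means from 1.79 to 2.17 and did not repeat the pattern in Mino, where both GSI arrays lay below both Mock arrays.

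HES6, the antagonist of HES1, was present in all 3 lines and had no called change. It read 4.94 and 5.30 in Mino Mock, 5.71 and 5.61 in Rec-1 Mock, and 4.98 and 5.29 in SP-49 Mock. The Rec-1 arrays lay above the others, with differences of 0.54 from Mino and 0.52 from SP-49 (limma adjusted p = 0.0737 and 0.0751). Both passed with quantile normalization again (0.0282 and 0.017) and with the mean of probe sets per gene (0.045 and 0.0462), and the difference from SP-49 also with array weights and with the arrays of these 2 lines alone. With inhibitor it read 5.09 and 5.16, 5.95 and 5.65, and 5.55 and 5.12 in Mino, Rec-1 and SP-49, overlapping with Mock each time. The 95% intervals of its change were -0.40 to 0.41, -0.27 to 0.55 and -0.21 to 0.61. In Rec-1 the change of HES6 therefore had an upper bound of 0.55 on the side of a rise and a lower bound of -0.27 on the side of a fall, while HES1 fell by 3.80 on the same arrays.

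**Figure D2:**
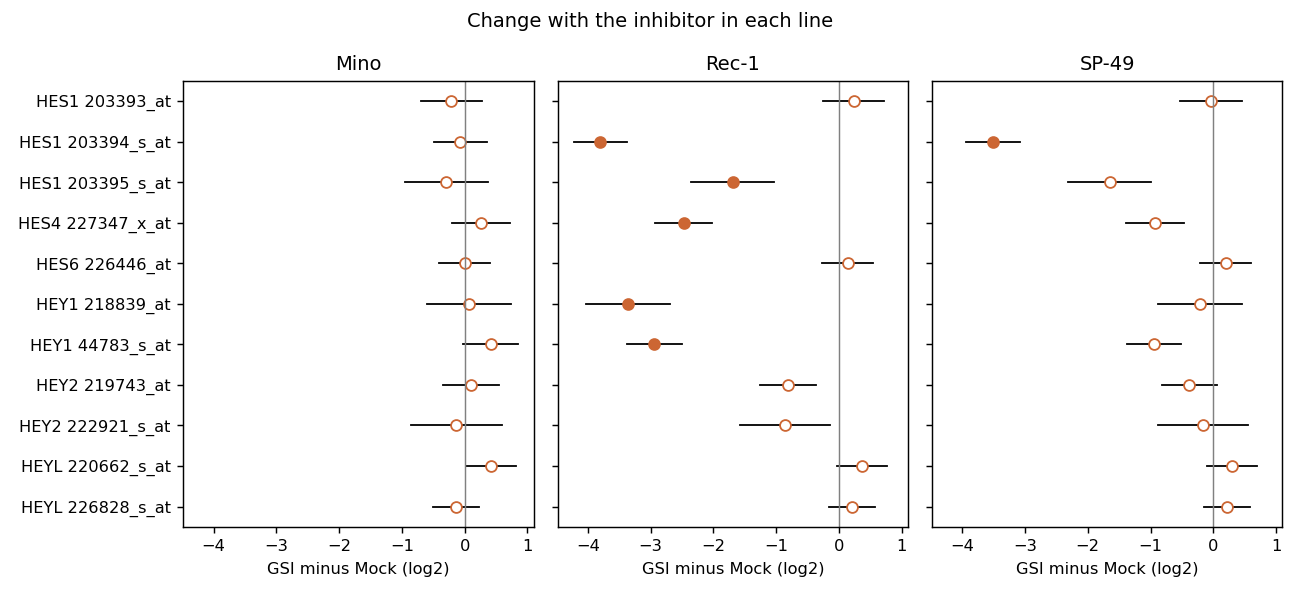
Change with the inhibitor, GSI minus Mock on the log2 scale (x axis), for the 11 probe sets (y axis) in each line. Circles are limma estimates, lines their 95% intervals (2 arrays against 2), and filled circles passed an adjusted p of 0.05. The 5 filled circles in Rec-1 belong to HES1, HES4 and HEY1, the single one in SP-49 to HES1, and Mino has none.

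In all, 5 of 11 probe sets fell in Rec-1 and none rose, where 2.15% of all probe sets were called lower and 0.977% higher. In SP-49, 1 of 11 fell and none rose, where 0.0439% were called lower and 0.00549% higher. In Mino, 0 of 11 passed by limma (1 with an unadjusted p under 0.05), where 0% of all probe sets were called. The median change of the 11 was -0.86 in Rec-1, -0.21 in SP-49 and 0.00 in Mino, against medians of 0.0066, -0.015 and -0.0097 over all probe sets. Across all probe sets, 1177 were lower and 534 higher in Rec-1, a division that became 1027 and 804 when quantile normalization was applied again. The GSI arrays lay below the Mock arrays without overlap for 7 of the 11 in Rec-1 (21.1% of all probe sets), 4 in SP-49 (22.5%) and 1 in Mino (17.7%). They lay above without overlap for 2 in Rec-1 (20.7%), 1 in SP-49 (17.5%) and 3 in Mino (15.3%). The 4 below in SP-49, from HES1, HES4 and HEY1, were also below in Rec-1, as were 7.24% of all probe sets in both lines. The change in Rec-1 was lower than that in Mino for 4 probe sets, of HES1, HES4 and HEY1 (background 0.408%), and the change in SP-49 was lower than that in Mino for HES1 on 203394_s_at (background 0.0201%). In Rec-1 the change was lower than in SP-49 for the 2 of HEY1 (background 0.0713%). Comparisons within a line share its Mock arrays, and the differences between lines reuse those changes. In a fit of the 4 Rec-1 arrays alone, HES1 on 203394_s_at and HES4 passed (adjusted p = 0.037 for both) and HEY1 on 44783_s_at did not (adjusted p = 0.0556).

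**Figure D3:**
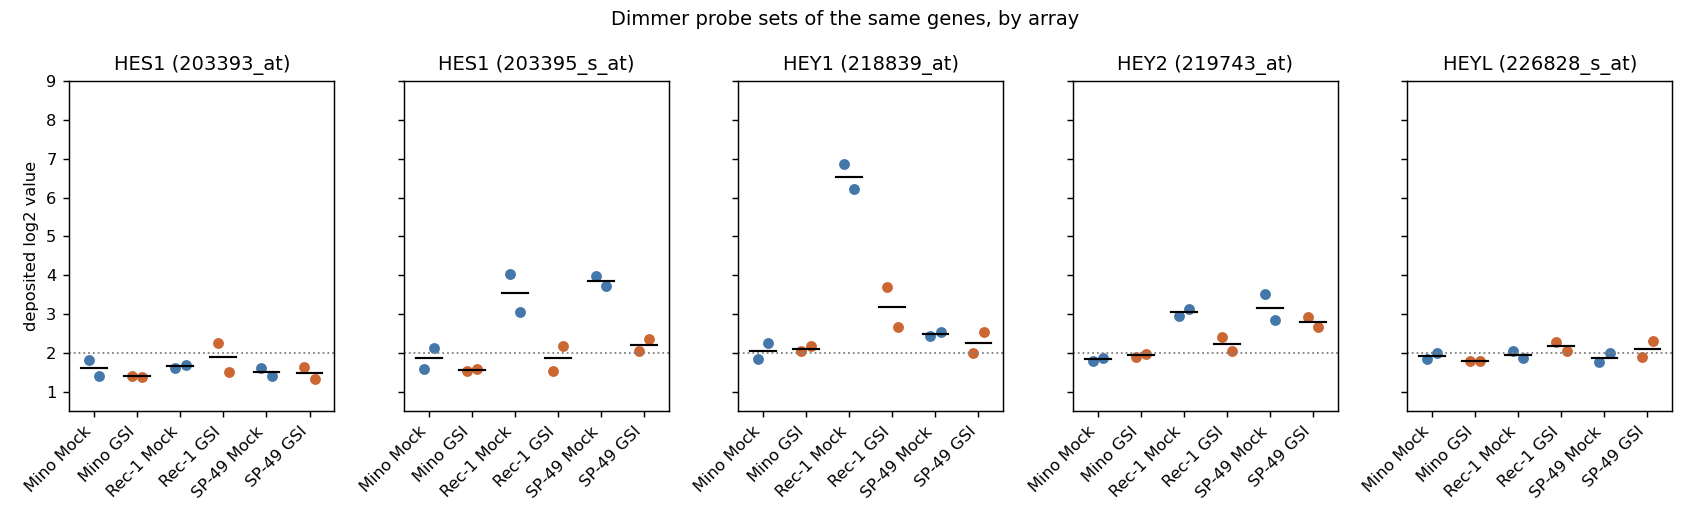
Deposited log2 values (y axis) of the 5 dimmer probe sets of HES1, HEY1, HEY2 and HEYL in the 6 groups (x axis), with points for single arrays (blue Mock, orange GSI), bars for means (n = 2) and a dotted line at the median of all probe sets, 1.99. HES1 on 203395_s_at and HEY1 on 218839_at repeat the fall in Rec-1, and HES1 on 203393_at has group means from 1.40 to 1.89.

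None of the other genes of the family passed with the inhibitor. HES2, HES5, HES7, BHLHE40 and BHLHE41 were measured with 11 probe sets between them, and HES3 and HELT were not analysed here. Over all 19775 genes, each by its brightest probe set, 2.95% were called lower and 1.67% higher in Rec-1, 0.0759% and 0.0101% in SP-49, and none in Mino, with median changes of 0.012, -0.019 and -0.0036. By limma, 0 of the 5 genes passed in any line on the brightest probe set (unadjusted p under 0.05 for 2 in Rec-1, 1 in SP-49 and 0 in Mino). At these shares of all genes called, 0 of 5 is not a result about the relatives. HES5, the other classical Notch target of the HES group, had group means from 1.72 to 1.83, below the median probe set. HES7, known from the segmentation clock, had group means from 2.48 to 2.76, and HES2 from 3.14 to 3.73 on its brightest probe set. The 6 dimmer probe sets of the 5 genes had group means from 1.22 to 3.46, and 0 passed with the inhibitor by limma (1 with an unadjusted p under 0.05). BHLHE41, a clock-linked repressor also known in B cells, had a mean of 7.93 in Rec-1 Mock and 8.29 in Rec-1 GSI, with a change of 0.37 (adjusted p = 0.227). Like 4 of the 6 members, BHLHE41 had a higher Mock level than in Mino in both other lines on its brightest probe set. The difference was 3.85 in Rec-1 and 1.36 in SP-49 (limma adjusted p = 4.71e-09 and 3.1e-05). On its dimmer probe sets the SP-49 differences were 0.12, 0.14 and 0.26 and did not pass (adjusted p = 0.845, 0.681 and 0.274). In Rec-1 they were 1.63, 0.30 and 0.50 (adjusted p = 0.000552, 0.251 and 0.0261). BHLHE40, the paralogue of BHLHE41, had a change of -0.60 in SP-49 (adjusted p = 0.268), from 6.49 ± 0.14 to 5.89 ± 0.07 (SD, n = 2). On its brightest probe set the Mock level of BHLHE40 was higher than in Mino by 1.18 in SP-49 (limma adjusted p = 0.000153). In Rec-1 the difference was 0.47 and did not pass (adjusted p = 0.0549). The dimmer probe set of BHLHE40 had differences of 0.21 in SP-49 and 0.22 in Rec-1 (adjusted p = 0.613 and 0.583). HES2, HES5 and HES7 had no called Mock difference from Mino.

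None of the co-repressors that HES and HEY proteins use passed the test. Of 11 measured (TLE proteins, histone deacetylases and their partners), 0 passed in any line by limma, with an unadjusted p under 0.05 for 6 in Rec-1, 1 in SP-49 and 0 in Mino. At the shares of all genes called, 0 of 11 is not a result about these genes. Their median change was 0.11 in Rec-1 and -0.01 in SP-49. TLE4 had the smallest adjusted p in Rec-1, 0.0811, with a change of 0.75 from 4.62 ± 0.17 to 5.37 ± 0.44 (SD, n = 2). TLE6, TLE1 and SIN3A had changes of 0.97, 0.38 and -0.50 there (adjusted p = 0.13, 0.236 and 0.262).

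Other Notch-induced genes fell beside the HES and HEY genes. This list of 9 was chosen with results of these arrays known, so its direction is not independent evidence. Of the 9, 8 fell in Rec-1 and 4 in SP-49, none rose, where 2.95% and 0.0759% of all genes were called lower, and 0 passed in Mino by limma (1 with an unadjusted p under 0.05). DTX1 was the 1 gene of the list that passed in no line. The unadjusted limma p was under 0.05 for all 9 in Rec-1 and for 7 in SP-49. The median changes were -1.38 and -0.80. The B-cell surface receptors FCRL4 and CR2 had changes of -3.28 and -3.14 in Rec-1 and of -3.21 and -2.75 in SP-49, all past the threshold, and NRARP, a feedback inhibitor of Notch, fell by 1.38 in Rec-1. CD300A, an inhibitory receptor, fell by 1.54 in Rec-1 and, with a change of -2.43, in SP-49. MYC, the growth regulator, fell in these lines, with changes of -1.53 and -1.55 (in SP-49 the adjusted p was 0.0076). The SP-49 call of MYC ended without either SP-49 Mock array or without replicate 2 of SP-49 GSI. NOTCH3, SH2B2 and FYN fell in Rec-1, with changes of -0.93, -1.0 and -0.93 (adjusted p = 0.072 for NOTCH3 without replicate 2 of Rec-1 Mock).

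In the core machinery of the pathway the share called was near that of all genes. Of 27 measured receptors, ligands, proteases, glycosyltransferases and nuclear partners, 1 fell in Rec-1 (2.95% of all genes) and none rose, and 0 passed in SP-49 and Mino by limma (unadjusted p under 0.05 for 6, 1 and 0 of the 27 in Rec-1, SP-49 and Mino). The median changes in the 3 lines were -0.10, 0.00 and 0.04. The gene that fell was MFNG, a glycosyltransferase that tunes the response of Notch to its ligands. Its change was -0.78, from 6.18 ± 0.09 to 5.40 ± 0.19 (SD, n = 2; adjusted p = 0.013). The call of MFNG ended without either Rec-1 Mock array or without replicate 2 of Rec-1 GSI. Genes known in other tissues to be repressed by HES or HEY proteins were also examined. Of 9 measured, 1 rose in Rec-1 (1.67% of all genes) and 0 passed in SP-49 and Mino by limma (unadjusted p under 0.05 for 1, 0 and 0). CDKN1B, the cell-cycle inhibitor p27, rose by 0.50 in Rec-1, from 7.44 ± 0.09 to 7.93 ± 0.01 (SD, n = 2; adjusted p = 0.0415). Its call ended in each of the 12 fits that left out 1 array, with an adjusted p of up to 0.235.

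Outside the family, each gene being taken at whichever probe set matched best, the genes closest in pattern to HES1 over the 12 arrays were FCRL4 (Pearson r = 0.99), CR2 (0.963), CDV3 (0.931), the chemokine CXCL9 (0.925) and RAD23B (0.92). FCRL4 on this probe set had group means of 4.98 in Rec-1 Mock, 4.85 in SP-49 Mock, and between 1.43 and 2.17 in the other groups. CXCL9 stayed near background, with group means from 1.38 to 2.29. Those of CDV3 ranged from 4.27 to 5.51 and those of RAD23B from 5.44 to 6.28, smaller differences than in HES1. HEY1 was matched most closely by CD300A (0.993), ISCA1 (0.99), WNK2 (0.983), ACOT7 (0.981) and CYP27B1 (0.98). CD300A on this probe set had a mean of 5.41 in Rec-1 Mock, 3.42 in Rec-1 GSI and 2.03 in SP-49 Mock. On its brightest probe set the means were 8.63, 7.09 and 5.04, with changes of -1.54 in Rec-1 and -2.43 in SP-49 (r = 0.933 to HEY1). HES4 was matched by PTP4A3 (0.964), FOXA2 (0.956), STIP1 (0.955), PPP6C (0.955) and TRUB2 (0.953), which had smaller differences between groups than HES4. Of these 15 genes 9 were matched on a probe set other than their brightest, on which r was 0.974 for FCRL4 but 0.45 for RAD23B, 0.338 for PPP6C and 0.306 for FOXA2. PTP4A3, a phosphatase, had a mean of 6.70 in Rec-1 Mock and between 4.33 and 4.89 in the other groups. Among the members, HES4 and HEY1 had r = 0.935 and HES1 and HEY1 had r = 0.595. These correlations describe arrays that fall into groups by line and treatment and share those groups, so they carry no p.

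**Figure D4:**
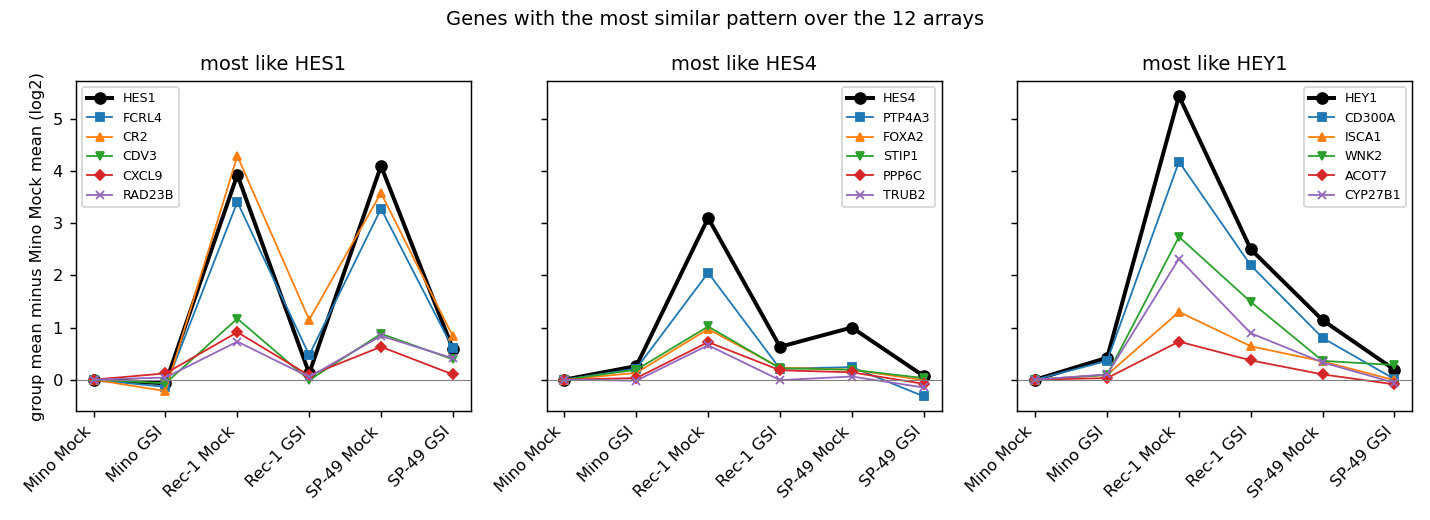
Group means minus the Mino Mock mean on the log2 scale (y axis) in the 6 groups (x axis) for HES1, HES4 and HEY1 (black, brightest probe set) and the 5 other genes with the highest correlation to each over the 12 arrays, on their best-matching probe set. FCRL4 and CR2 share the peaks of HES1 in both Rec-1 Mock and SP-49 Mock, and CD300A, on a dimmer probe set, has its highest mean where HEY1 does, in Rec-1 Mock.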

How the data were processed

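Values were the deposited log2 expression values of 54675 Affymetrix probe sets on 12 arrays, normalized between arrays by the authors, and the submitters' processing notes name RMA and limma without versions. The log base was inferred from the range, 0.578 to 12.8. Genes were named from platform annotation with symbols updated by gene number: 41097 probe sets named 1 gene, 1801 several and 11777 none. No probe set was removed. Changes were fitted with limma 3.58.1 in R 4.3.3 (lmFit, eBayes) with a mean for each of the 6 groups (12 arrays, residual degrees of freedom 6, prior 5.56). P-values were two-sided and Benjamini-Hochberg adjusted over 54675 probe sets within each contrast, threshold 0.05. Intervals of 95% are limma's for single probe sets. The number of arrays limits the precision, and the median SE of a change in 1 line was 0.163. On simulated arrays with independent noise, 100 probe sets were lowered by 1 and 100 by 2 log2 units in Rec-1. The fit recovered 67% and 100% of them, with 10 false calls. Fewer probe sets changed there than were called in Rec-1 and no background limited the falls, so these shares may not hold here. The brightest probe set of a gene had the highest mean over all arrays, and it stood for genes outside the 6 except in the search for like genes, which took the best-matching probe set. All probe sets of the 6 genes and all 5 measured relatives were named; other lists were named by calls in any line, or by the 4 smallest adjusted p in Rec-1. The genes, lists and alternatives were chosen with earlier results of these data known. Replicate numbers were not used to pair the arrays in the main fit.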

Additional observations from a re-analysis of the deposited data

Results flagged for a closer look

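The response to compound E differed between lines by limma's test of the difference for 3 of the 6 genes. For HES1 on 203394_s_at, the Rec-1 change minus the Mino change was -3.73 and the SP-49 change minus the Mino change -3.44. For HES4 on 227347_x_at, Rec-1 minus Mino was -2.74. For HEY1, Rec-1 minus Mino was -3.36 on 44783_s_at and -3.43 on 218839_at, and Rec-1 minus SP-49 was -1.99 and -3.15. Both HEY1 calls against SP-49, and that against Mino on 218839_at, were lost without certain single arrays, as given above. Of all probe sets, 0.408% were called lower for Rec-1 minus Mino, 0.0201% for SP-49 minus Mino and 0.0713% for Rec-1 minus SP-49. Mino had these genes near background in Mock, and SP-49 had HEY1 at 3.53 on 44783_s_at, so the room to fall also differed between the lines. Its part in these differences was not tested.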

How the results depend on the processing

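Of the brightest probe sets, HES1 kept its fall past the threshold in Rec-1 and SP-49, and HES4 in Rec-1, under every alternative tried, and HEY1 in Rec-1 under all but 1. HEY1 in Rec-1 was -2.94 and no longer passed in a fit of the 4 Rec-1 arrays alone, and in SP-49 it passed at -0.95 with array weights. With 1 array left out, HEY1 in SP-49 ran from -1.01 to -0.88 and HEYL in Rec-1 from 0.063 to 0.66, each passing in some of these fits. Of 11 probe sets, 5 passed in Rec-1, which became 3 of 6 genes at gene level (brightest or mean) and 2 with only the arrays compared, and 6 with dim probe sets left out, quantile normalization again, median centring or an intensity trend. The count in SP-49, 1, became 2 with an intensity trend and robust prior and 3 with array weights. The count for Rec-1 minus SP-49, 2, became 0 with only the arrays compared and 1 without replicate 2 of both GSI groups, and the Mock count for Rec-1 minus Mino, 7, became 4 genes with the brightest probe set, 5 genes with the mean of probe sets and 8 probe sets with quantile normalization again. The Mock count for Rec-1 minus SP-49, 3, became 3 genes with the mean of probe sets and 4 probe sets with quantile normalization, array weights or only the arrays compared. With 1 array left out, the counts ran from 4 to 7 in Rec-1, from 1 to 2 in SP-49, from 0 to 2 for Rec-1 minus SP-49, and from 1 to 2 for SP-49 minus Mino. At gene level fewer features were tested, and with fewer arrays fewer degrees of freedom were left; for the other settings the cause was not tested. The promoter count, 4 of 5 genes, was 4 with TGGGAA also, a count that could not be lower because TGGGAA lies inside GTGGGAA.

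Over all probe sets, the 1711 calls in Rec-1 ranged from 16 with only the arrays compared to 3708 without replicate 1 of Rec-1 GSI. The 27 in SP-49 ranged from 9 without replicate 2 of SP-49 GSI to 235 with an intensity trend. The calls for Rec-1 minus Mino (321) ranged from 48 to 1444, for SP-49 minus Mino (12) from 4 to 36, and for Rec-1 minus SP-49 (110) from 4 to 368. With the replicate block, 5 of 11 passed in Rec-1 and 1318 probe sets overall. The replicate deviations of Mock and GSI arrays correlated with r = 0.048, 0.069 and -0.011 in Mino, Rec-1 and SP-49.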
